A study of Mus musculus with 298 samples.

Results

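Blood transcription was compared at weeks 9 and 10 between mice with a switched-on human BCR-ABL transgene that were receiving the kinase inhibitor nilotinib (TKI cohort) and control mice in which the transgene stayed switched off. Samples were chosen by their labels alone: every library of these cohorts at weeks 9 and 10. They numbered 20 of the 298 libraries of the series, 14 from 7 TKI mice and 6 from 3 control mice, so 10 of the 20 mice of the series. All mice were C57BL/6 animals of the genotype tTA+/-, BCR-ABL+/- (SCLtTA/BCR-ABL) and were 6 to 8 weeks old at the start. TKI mice had tetracycline withdrawn at week 0 and received nilotinib at 50 mg/kg by daily oral gavage from week 6 to week 10, with the transgene left on. Control mice stayed on tetracycline water at 0.5 g/L and no vehicle gavage is stated for them, so the effects of tetracycline, gavage, nilotinib and the transgene cannot be told apart. Untreated CML mice, with tetracycline withdrawn and no nilotinib, gave a further 10 libraries from 5 mice at the same weeks. Each mouse entered as 1 value, the mean of its 2 weeks, and its week 0 value was not subtracted.

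Chronic myeloid leukaemia (CML) is driven by BCR-ABL, a fusion kinase that is active without a growth factor signal and pushes blood stem cells toward granulocytes, platelets and basophils. In these mice the tTA activator is under control of elements of the Scl (Tal1) gene, which direct it to haematopoietic stem and progenitor cells, and tetracycline keeps it from binding its promoter. Nilotinib occupies the ATP site of the ABL kinase and blocks signalling without removing the transcript, and leukaemic stem cells are known to persist under such inhibitors. The comparison addresses what still set the blood of drug-treated leukaemic mice apart from that of mice without leukaemia.

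The tissue label names mononuclear cells, while the protocol describes RNA from whole blood. Transcripts of red cells, platelets and granulocytes, which a mononuclear preparation removes in large part, were abundant in both cohorts. Transcript abundances in TPM, a length-scaled share of all transcripts of a library, were divided by a size factor for each library, giving rescaled TPM, and genes were tested on log2(rescaled TPM + 1), which understates differences of genes near 1 TPM. Over the 20 libraries, genes at 1 TPM or more numbered 8320 to 11615 and size factors ran from 0.568 to 1.857. No pair of libraries was identical (0), and none (0) of the 20 had sex-linked transcripts that went against its label. Haemoglobin transcripts made up 28.0 ± 9.43% of TPM in TKI mice (SD, n = 7) and 55.3 ± 5.23% in control mice (SD, n = 3). The small RNA Rn7s2 made up 38.9 ± 5.90% in TKI mice and 21.9 ± 2.18% in control mice. Both shares differed with no overlap between cohorts (exact two-sided permutation p = 0.01667 each, the smallest that 7 against 3 mice allow, adjusted p = 0.0333 over 6 values). At week 0 the libraries of control mice 489 and 490 stood apart, with haemoglobin shares of 19.7 and 30.6% and size factors of 2.36 and 2.13, against haemoglobin shares of 49.6 to 67.2% in TKI libraries. In whole blood, fewer cells of a type and less RNA per cell cannot be told apart. With only 3 control mice, the gene tests rest on a spread pooled over both cohorts, to which these few animals add little.

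The transgene transcript was present in all 7 TKI mice on nilotinib. Its lowest, median and highest level was 3.65, 6.19 and 18.0 rescaled TPM in TKI mice, against 0, 0 and 0.0784 in control mice 488, 489 and 490. None (0) of the 14 TKI libraries and 5 of the 6 control libraries were listed at 0. The cohorts did not overlap, and the difference was 3.05 ± 0.41 (log2, ± SE; limma with Benjamini-Hochberg adjustment, adjusted p = 0.000666). Mouse Abl1, the host gene of the kinase domain, was lower in TKI mice, at 3.99, 4.59 and 5.12 TPM (lowest, median, highest), against 6.59, 5.85 and 6.32 TPM in control mice. Its difference was -0.38 ± 0.08 (adjusted p = 0.00399), and it did not pass on TPM without rescaling (adjusted p = 0.687). Mouse Bcr overlapped between the cohorts, at 8.60 to 22.3 TPM in TKI mice and 5.97 to 10.8 TPM in control mice, and its call (0.66 ± 0.25, adjusted p = 0.0457) was lost when any 1 of 7 of the 10 mice was left out. Human and mouse sequences of these genes are alike, so reads may be shared between them.

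Differences between the cohorts were called for many genes, at a number that depended on the handling of week 0 and batch. Of 10519 genes tested, 5194 (49.4%) passed an adjusted p of 0.05, 2499 (23.8%) higher and 2695 (25.6%) lower in TKI mice. The sizes were uneven: 771 called genes were at least 2-fold higher and 90 at least 2-fold lower, and 113 were at least 4-fold higher and 3 at least 4-fold lower. The median difference over all genes was -0.046. The levels of all TKI mice lay above those of all control mice for 2179 genes (20.7%) and below them for 2281 (21.7%). On TPM without rescaling, 1883 genes passed and 92.9% of them were higher in TKI mice, against 48.1% with rescaling, while the all-gene median was 0.1. The count also fell to 911 with each mouse's week 0 value subtracted, to 3193 without control mouse 490, to 14 with batch as a term and to 97 within the only batch that held both cohorts. Higher in TKI mice were 53.8% of the 911 genes and 54.9% of the 3193. These shares and totals are the background for the counts of gene groups that follow, each for its own setting.

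The largest difference among the named genes was that of a neutrophil granule gene, Ngp. Ngp, which encodes a cathelicidin-related protein of neutrophil granules, stood at 25.4, 105 and 149 TPM in TKI mice (lowest, median, highest), against 0.723, 0.392 and 0.409 TPM in control mice (log2 difference 5.69 ± 0.47, adjusted p = 8.41e-05). Camp, the antimicrobial cathelicidin, stood at 7.35, 27.8 and 31.5 TPM in TKI mice, against 0.175, 0.0631 and 0.0628 TPM in control mice (4.15 ± 0.41, adjusted p = 0.00022). Absence of overlap was a condition for naming these genes, and the lowest TKI mouse lay far above the highest control mouse for both. Saa3, an acute-phase serum amyloid made by myeloid cells, stood at 9.93, 22.3 and 78.9 TPM in TKI mice and at 0.102, 0.239 and 0.00402 TPM in control mice (4.53 ± 0.57, adjusted p = 0.000546). Lcn2, an iron-scavenging granule protein, stood at 33.1, 104 and 316 TPM in TKI mice and at 9.88, 8.15 and 7.64 TPM in control mice (3.51 ± 0.52, adjusted p = 0.000935). TKI mice spanned several-fold ranges for all 4 genes, and control levels of Ngp, Camp and Saa3 lay below 1 TPM. Mmp8, the neutrophil collagenase, stood at 12.9 to 116 TPM in TKI mice and at 2.37 to 3.85 TPM in control mice, a difference of 3.11 ± 0.51.

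The promoters of Ngp and Saa3, the members with the largest differences among genes of the secondary granule list, are shown because C/EBP epsilon, a transcription factor of late granulocyte maturation, acts through sites of this kind in such genes. Cebpe, its own gene, was higher in TKI mice at 0.514 to 1.45 TPM, against 0.233 to 0.246 TPM in control mice (0.74 ± 0.14, adjusted p = 0.00237). Sequences are from RefSeq on GRCm38.p6, another build than the one used for quantification, and run 5′ to 3′ from 250 bases before to 50 bases after the gene's start. Capitals mark matches of TTNNGNAA on either strand.
Ngp (chr9:110419558-110419857, + strand): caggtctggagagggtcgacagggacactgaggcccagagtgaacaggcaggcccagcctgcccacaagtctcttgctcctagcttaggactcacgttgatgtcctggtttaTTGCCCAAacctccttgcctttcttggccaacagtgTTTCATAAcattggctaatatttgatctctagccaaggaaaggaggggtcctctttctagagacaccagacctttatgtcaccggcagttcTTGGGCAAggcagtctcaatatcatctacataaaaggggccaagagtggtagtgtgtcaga
Saa3 (chr7:46715627-46715926, - strand): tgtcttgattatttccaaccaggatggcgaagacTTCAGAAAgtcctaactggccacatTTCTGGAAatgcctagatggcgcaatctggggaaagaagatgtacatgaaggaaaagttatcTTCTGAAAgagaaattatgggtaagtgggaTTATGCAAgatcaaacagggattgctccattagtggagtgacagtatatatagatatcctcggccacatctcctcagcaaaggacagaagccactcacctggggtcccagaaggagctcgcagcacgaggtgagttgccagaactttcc
Ngp held 3 matches, whose first bases lie at -138, -102 and -11 from the start, and Saa3 held 4, at -216, -191, -129 and -99. The motif occurred in 13 of 21 promoters found for the secondary granule list (61.9%) and in 10993 of 27025 promoters of all genes (40.7%). A match describes the letters and not binding.

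As a group, 22 of 24 tested members of the secondary granule list rose and none (0) fell, with a median difference of 1.73. The list also held the acute-phase gene Saa3, as well as Dstn, an actin-severing protein, and B2m, the light chain of class I antigen presentation, which are not granule proteins. Genes of mature neutrophils rose in 31 of 41 cases and fell in none (0), with a median of 1.16. Among them Retnlg, a resistin-like secreted protein, stood at 155, 307 and 860 TPM in TKI mice, against 53.3, 50.6 and 41.2 TPM in control mice (2.82 ± 0.40). S100a8, a calcium-binding alarmin, stood at 519.5, 858 and 2099 TPM in TKI mice, against 218, 153 and 145 TPM in control mice (2.52 ± 0.38, adjusted p = 0.000994). Neither gene overlapped between the cohorts. The formyl peptide receptor Fpr2 (2.35 ± 0.35), the surface marker Ly6g (2.16 ± 0.36), lactoferrin Ltf (2.55 ± 0.53) and the chemokine receptor Cxcr2 (1.16 ± 0.35, adjusted p = 0.0203) were higher too. Primary granule genes, which are transcribed earlier in maturation, rose in 8 of 11 cases with a median of 0.83, proteinase 3 (Prtn3) by 1.67 ± 0.28. With week 0 subtracted, 4 secondary granule genes and 1 mature neutrophil gene remained called, while without rescaling the counts were 22 and 32. Over all 10519 genes the former setting called 911 (53.8% higher) and the latter 1883 (92.9% higher). The fit with week 0 subtracted includes the control libraries that stood apart at week 0, and its variance trend runs over the mean change. What lowered its counts was not tested.

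**Figure D1:**
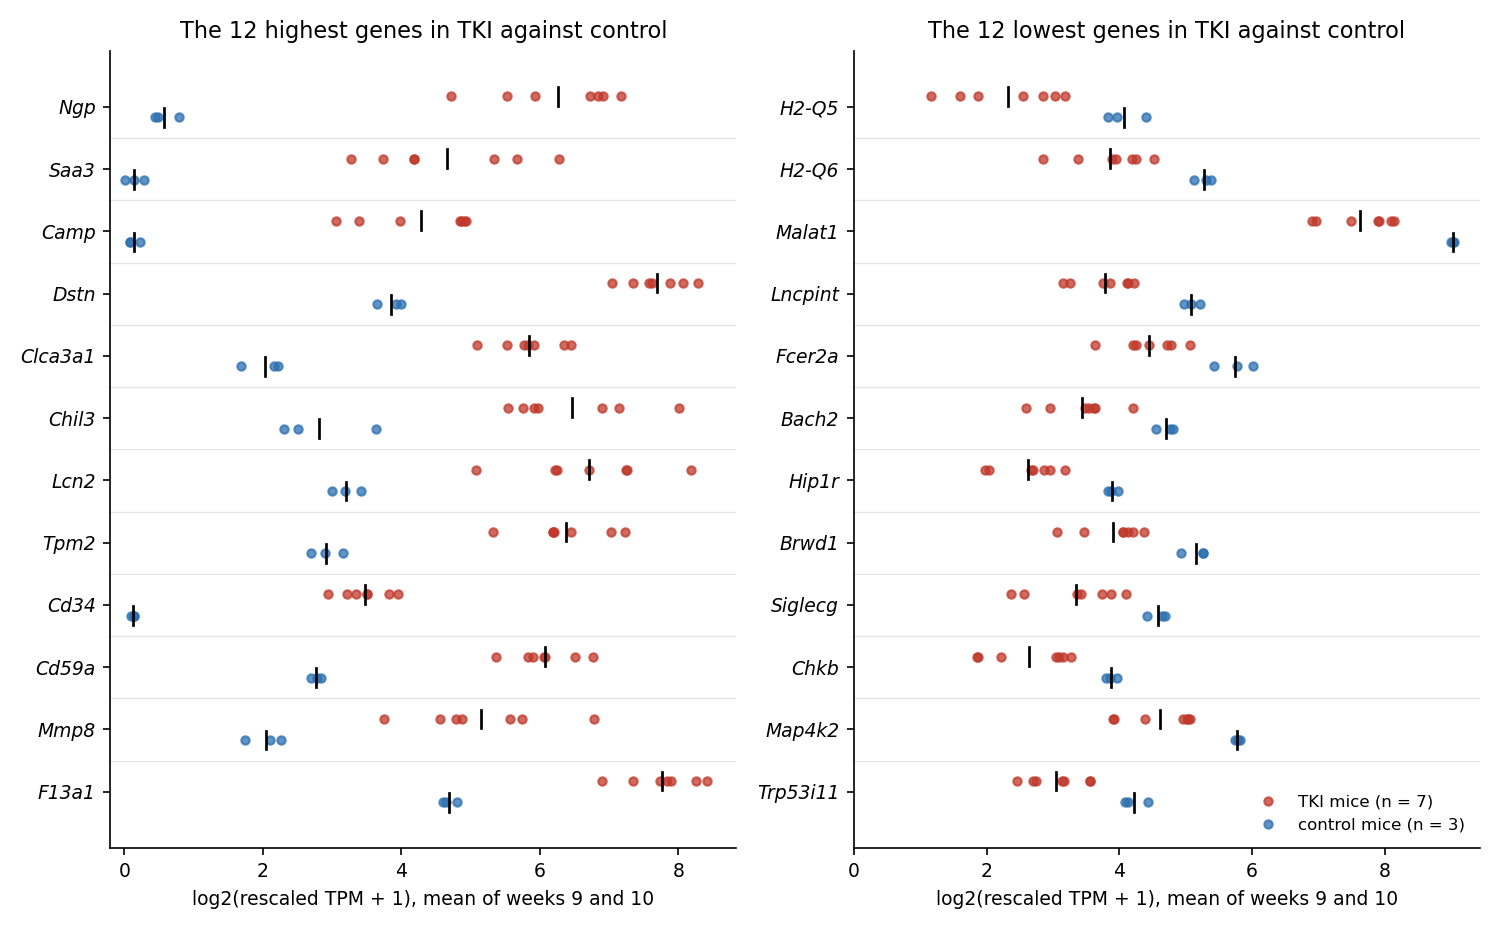
Level of the 12 genes with the largest higher (left) and lower (right) differences among called genes of at least 5 TPM whose cohorts do not overlap, gene models and pseudogenes passed over, as log2(rescaled TPM + 1) averaged over weeks 9 and 10 for each mouse. Points are mice, TKI (n = 7) above control (n = 3) in each row, and black bars are means; the absence of overlap is fixed by the choice of genes. The gaps are wider on the left, where Ngp differs by 5.69, than on the right, where H2-Q5 differs by -1.74.

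Monocyte genes were higher in part. Of 31 tested, 13 rose and 1 fell, with a median of 0.49. F13a1, the coagulation factor XIII A chain of monocytes and platelets, stood at 121, 228 and 341 TPM in TKI mice and at 27.3, 23.5 and 24.1 TPM in control mice (3.08 ± 0.29, adjusted p = 0.000154). Chil3, a chitinase-like protein of myeloid cells, stood at 48.8, 62.4 and 279 TPM in TKI mice and at 5.86, 4.87 and 11.8 TPM in control mice (3.65 ± 0.51, adjusted p = 0.000812). Both were apart in every mouse, which was a condition for naming them. The proteoglycan Vcan (2.42 ± 0.32), the lipopolysaccharide co-receptor Cd14 (2.05 ± 0.32) and the chemokine receptor Ccr2 (1.68 ± 0.33) rose as well. Csf1r, the receptor that defines the monocyte lineage, had a difference of 0.47 ± 0.29 and did not pass (adjusted p = 0.195). In the list for interleukin 1 and the inflammasome, 10 of 25 genes rose and 3 fell, with the inflammatory caspase Casp4 at 1.19 ± 0.14 and the receptors Tlr2 and Tlr4 at 0.85 ± 0.22 and 0.74 ± 0.18.

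Platelet genes rose together. Of 32 tested, 29 rose and none (0) fell, with a median of 1.80, beside -0.046 for all genes. Gp1bb, part of the platelet receptor for von Willebrand factor, stood at 175, 289 and 498 TPM in TKI mice (lowest, median, highest), against 29.8, 58.7 and 31.5 TPM in control mice (2.96 ± 0.32, adjusted p = 0.000298). Selp, the adhesion receptor P-selectin, stood at 19.5, 35.1 and 51.6 TPM in TKI mice, against 3.87, 4.23 and 2.13 TPM in control mice (3.03 ± 0.30, adjusted p = 0.000209). Neither overlapped between the cohorts. The ATP receptor P2rx1 (2.80 ± 0.29), the thrombin receptor F2rl2 (2.29 ± 0.26) and the integrin chain Itga2b (1.98 ± 0.32) rose too. The chemokine Pf4, a defining platelet transcript, stood at 1125, 2375 and 3317 TPM in TKI mice and at 552.9, 743 and 394.8 TPM in control mice (2.02 ± 0.31, adjusted p = 0.00111). Further genes among the 12 named as higher were Clca3a1 (3.82 ± 0.27), a member of the calcium-activated chloride channel regulators, Tpm2 (3.46 ± 0.34), a tropomyosin of the actin skeleton, and Cd59a (3.30 ± 0.25), an inhibitor of complement lysis. Dstn stood at 132, 214.5 and 311.5 TPM in TKI mice, against 14.7, 15.1 and 11.5 TPM in control mice (3.83 ± 0.25, adjusted p = 1.89e-05). The platelet count was 31 without rescaling, 25 without control mouse 490 and 7 with week 0 subtracted.

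The promoters of Selp and Gp1bb, the platelet genes with the largest differences, are shown in the same frame and from the same source because GATA1 drives much of megakaryocyte gene expression. Gata1 itself was higher in TKI mice, at 10.4, 15.5 and 23.1 TPM, against 6.34, 7.94 and 3.35 TPM in control mice (1.35 ± 0.27, adjusted p = 0.00338). Capitals mark matches, on either strand, of the GATA motif in its forms AGATAA and also AGATAG, and likewise TGATAA and also TGATAG.
Selp (chr1:164115014-164115313, + strand): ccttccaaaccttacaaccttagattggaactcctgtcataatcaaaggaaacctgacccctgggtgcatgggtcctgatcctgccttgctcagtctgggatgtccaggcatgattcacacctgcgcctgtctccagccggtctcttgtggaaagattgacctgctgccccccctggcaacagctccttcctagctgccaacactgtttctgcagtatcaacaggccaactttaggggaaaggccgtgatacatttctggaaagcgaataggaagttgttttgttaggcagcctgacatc
Gp1bb (chr16:18622354-18622653, - strand): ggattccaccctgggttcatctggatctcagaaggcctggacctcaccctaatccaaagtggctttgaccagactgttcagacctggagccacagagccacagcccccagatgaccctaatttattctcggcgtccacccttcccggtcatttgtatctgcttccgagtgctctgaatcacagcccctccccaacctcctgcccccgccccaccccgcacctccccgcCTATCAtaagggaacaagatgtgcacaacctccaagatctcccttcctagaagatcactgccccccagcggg
Gp1bb held 1 match, on the opposite strand with its first base at -22, and Selp held 0 in this window. The motif occurred in 11 of 24 promoters found for the platelet list (45.8%) and in 8166 of 27025 promoters of all genes (30.2%). It also occurred in 8 of 21 secondary granule promoters (38.1%). TTNNGNAA in turn occurred in 11 of 24 platelet promoters (45.8%), beside 40.7% of promoters of all genes. Whether either motif favours its own list was not tested.

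Transcripts of 2 basophil proteases were close to absent from control blood. Mcpt8, a serine protease that marks mouse basophils, stood at 7.28, 9.36 and 13.4 TPM in TKI mice, against 0.401, 0.383 and 0.112 TPM in control mice (2.96 ± 0.19, adjusted p = 1.89e-05). Prss34, another basophil protease, stood at 4.85, 6.35 and 9.95 TPM in TKI mice, against 0.346, 0.211 and 0.192 TPM in control mice (2.50 ± 0.21, adjusted p = 9.43e-05). The lowest TKI mouse was above 10 times the level of the highest control mouse for both genes. In the basophil and mast cell list 15 of 20 genes rose and 1 fell, with a median of 0.77; the list shares Itga2b with platelets and the tetraspanin Cd63 (2.01 ± 0.25) with granules. Of 3 eosinophil genes tested, Cebpe rose and Il5ra, the interleukin 5 receptor chain, fell (-0.57 ± 0.19), while Ear2 differed by 0.21 ± 0.35 (adjusted p = 0.636).

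Cd34, a surface protein of stem and progenitor cells that mouse mast cells also carry, had the smallest adjusted p of the genes named. It stood at 6.75, 10.7 and 14.5 TPM in TKI mice, against 0.066, 0.0993 and 0.0975 TPM in control mice (3.35 ± 0.18, adjusted p = 7.22e-06). Control levels lay near 0 in all 3 mice. Cd93, a lectin-like receptor described on leukaemic stem cells of human CML, stood at 17.8, 33.4 and 47.6 TPM in TKI mice, against 5.46, 4.82 and 4.66 TPM in control mice (2.44 ± 0.25, adjusted p = 0.00022). In the progenitor list 6 of 11 genes rose and 2 fell (median 0.73), and in the list of CML stem cell markers 9 of 13 rose and 1 fell (median 0.95), with the integrin Itga6 at 1.42 ± 0.30 and Cd47, which inhibits engulfment by macrophages, at 1.07 ± 0.17. Platelets or leukocytes also carry several of these proteins, and the part of each cell type was not tested.

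Targets of STAT5 were higher more often than not, and other lists around BCR-ABL were mixed. STAT5, a transcription factor activated by the kinase, had 12 of 18 listed targets higher and 1 lower, with a median of 0.62; with week 0 subtracted 4 were higher. Socs3, a feedback inhibitor of cytokine signalling, stood at 16.5, 18.8 and 27.0 TPM in TKI mice, against 6.03, 6.54 and 7.44 TPM in control mice (1.41 ± 0.16, adjusted p = 0.000367). Myc, a growth regulator, stood at 7.45, 8.49 and 9.56 TPM in TKI mice, against 2.90, 4.24 and 3.88 TPM in control mice (1.02 ± 0.11, adjusted p = 0.000276). The kinase gene Pim3, a further target, was lower at -0.51 ± 0.09. Among 30 genes of BCR-ABL signalling 10 rose and 3 fell (median 0.13), the phosphatase Ptpn11 by 1.47 ± 0.27, the kinases Jak2 by 1.18 ± 0.19 and Lyn by 0.92 ± 0.19. Of 6 genes listed for nilotinib targets and transport, the quinone reductase Nqo2, which binds nilotinib, rose (1.67 ± 0.20, adjusted p = 0.000453), and Abl1 and Abl2 (-0.36 ± 0.10) fell. In the BCL2 family 3 of 15 rose and 2 fell, the pore-forming Bak1 by 0.92 ± 0.18 and Bax by -0.30 ± 0.09, and in the immediate early list 3 of 21 rose and 3 fell, Dusp1, a phosphatase of MAP kinases, by 1.10 ± 0.22 and Fosb by -0.76 ± 0.10.

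Many genes of glycolysis and respiration were higher. Of 20 glycolysis genes 13 rose and none (0) fell, with a median of 0.92, and 7 were called with week 0 subtracted. The pyruvate kinase Pkm stood at 228, 377 and 584 TPM in TKI mice, against 98.6, 112 and 87.6 TPM in control mice (1.90 ± 0.28, adjusted p = 0.000911), and Gapdh, often used as a reference transcript, rose by 1.66 ± 0.25. Nuclear genes of oxidative phosphorylation rose in 35 of 49 cases (19 without rescaling) with a median of 0.54, and mitochondrially encoded genes in 5 of 13 with a median of 0.59. With week 0 subtracted none (0) of either list was called, and the mitochondrial median was already 0.87 at week 0. The mitochondrial share of TPM was 0.438 ± 0.107% in TKI mice and 0.224 ± 0.0994% in control mice (exact permutation p = 0.0333, adjusted p = 0.05). Of 77 ribosomal protein genes 17 rose and 3 fell, with a median of 0.28. Those that rose were near the share of all genes called higher (23.8%). Their count was 7 without rescaling and 0 with week 0 subtracted. In the cholesterol list 7 of 20 rose and 2 fell. In the unfolded protein list 10 of 26 rose and 3 fell, Edem1, a factor that targets misfolded glycoproteins for degradation, by 1.59 ± 0.25. In the histone list 9 of 24 rose and none (0) fell, the linker histone H1f2 by 1.73 ± 0.27.

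B cell transcripts were lower in TKI mice. Fcer2a, the low-affinity IgE receptor of mature B cells, stood at 11.5, 20.8 and 32.7 TPM in TKI mice, against 55.0, 42.3 and 63.7 TPM in control mice (-1.30 ± 0.27, adjusted p = 0.00378). Bach2, a repressor that keeps B cells from becoming plasma cells, stood at 5.05, 10.9 and 17.5 TPM in TKI mice, against 27.1, 22.8 and 26.4 TPM in control mice (-1.28 ± 0.28, adjusted p = 0.00486). No TKI mouse reached the lowest control mouse for either, which was a condition for naming them. Of 30 B cell genes 19 fell and none (0) rose, with a median of -0.76, the B lineage factors Pax5 by -0.97 ± 0.21 and Ebf1 by -0.90 ± 0.22. Ms4a1, which encodes CD20, differed by 0.05 ± 0.25 and did not pass (adjusted p = 0.88). The immunoglobulin light chain genes Iglc2 (-1.10 ± 0.28) and Iglc3 (-0.94 ± 0.24), near-identical copies whose reads may be split, were lower, while Ighg1, an IgG heavy chain, rose by 1.06 ± 0.20 from low levels. Over 12 plasma cell genes 2 rose and 6 fell. On TPM without rescaling 2 B cell genes were called lower (median -0.56), 6 were without control mouse 490, and 1 was with week 0 subtracted. Over all 10519 genes these settings called 1883 (92.9% higher), 3193 (54.9% higher) and 911 (53.8% higher).

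Class II antigen presentation genes fell in 3 of 11 cases, near the share of all genes called lower, with a median of -0.43 and 1 called lower without rescaling. The 3 were H2-DMb1, a peptide-loading chain, at -1.15 ± 0.24, H2-Ob at -1.13 ± 0.34 and H2-Ab1, a class II beta chain, at -0.82 ± 0.22. Of 20 class I genes 5 rose and 8 fell. The nonclassical class I genes H2-Q5 and H2-Q6, near-identical copies, were lower, with H2-Q5 at 1.26, 5.00 and 8.14 TPM in TKI mice and at 14.6, 13.3 and 20.1 TPM in control mice (-1.74 ± 0.41, adjusted p = 0.00665). B2m stood at 1260.0 to 2118 TPM in TKI mice and 669.8 to 1027 TPM in control mice, a rise of 0.96 ± 0.21. The direction of the class I median turned with the scaling, at -0.13 with rescaling and 0.055 without. Dendritic cell genes fell in 3 of 6 cases, Tcf4, a factor shared with B cells, by -0.85 ± 0.16. Without rescaling none (0) of the 6 was called.

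T cell and natural killer transcripts differed little. Of 36 T cell genes 5 rose and 5 fell, with a median of -0.15 that was 0.035 without rescaling and 0.062 at week 10 alone. The T cell receptor components Cd3e (-0.08 ± 0.14), Cd3d (-0.04 ± 0.12) and Trac (0.12 ± 0.17) did not pass. The homing receptor Ccr7, which B cells share, fell by 0.89 on the log2 scale, and Cd28, a costimulatory receptor, rose to 4.23 to 8.55 TPM in TKI mice, against 1.90 to 2.71 TPM in control mice (1.20 ± 0.16, adjusted p = 0.000763). Of 22 natural killer genes 3 rose and 2 fell with a median of -0.05, and the defining receptors Ncr1 (-0.28 ± 0.17) and Klrb1c (-0.20 ± 0.13) did not pass. Itga2, which rose by 1.94 ± 0.30, is carried by platelets as well as natural killer cells.

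Other genes among the 12 named as lower were of mixed kinds, some of them genes of B cells. The nuclear RNA Malat1 stood at 119.8, 240.1 and 283.5 TPM in TKI mice, against 509.7, 520.5 and 524.4 TPM in control mice (-1.39 ± 0.29, adjusted p = 0.00389). The noncoding RNA Lncpint stood at 8.40, 13.6 and 19.4 TPM in TKI mice, against 30.4, 36.1 and 32.9 TPM in control mice (-1.30 ± 0.23, adjusted p = 0.00196). That TKI levels lay below control levels in every mouse was fixed by the choice of these genes. Hip1r, an endocytic adaptor (-1.27 ± 0.24), Brwd1, a chromatin reader of developing B cells (-1.25 ± 0.26), Siglecg, an inhibitory receptor of B cells (-1.23 ± 0.34), Chkb, a choline kinase (-1.23 ± 0.33), Map4k2, a germinal centre kinase (-1.17 ± 0.28), and Trp53i11 (-1.17 ± 0.24) completed the 12. Siglecg was not called without control mouse 490 (adjusted p = 0.0541), nor Map4k2 without rescaling (adjusted p = 0.0538). Of 21 cell cycle genes 9 fell and none (0) rose, with a median of -0.34. Among them were the replication licensing factor Cdt1 (-0.81 ± 0.10) and the helicase subunits Mcm5 (-0.52 ± 0.06) and Mcm7 (-0.53 ± 0.10). Mcm5 averaged only 1.915 TPM in TKI mice and 3.18 TPM in control mice. Without rescaling 2 cell cycle genes were called lower, 1 of them shared with the 9. Of 11 heat shock genes 2 rose and 3 fell, and of 16 p53 targets 4 rose and 3 fell.

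Haemoglobin transcripts were lower in TKI mice. Of 6 globin genes tested 3 fell, with a median of -1.29. The alpha globin gene Hba-a1 stood at 17580 to 68930 TPM in TKI mice and at 72480 to 178600 TPM in control mice (-1.55 ± 0.45, adjusted p = 0.0165), apart in TPM but overlapping on the log2 means that were tested, and Hba-a2, a near-identical copy, at -1.33 ± 0.43. The beta globin Hbb-bs differed by -1.10 ± 0.43 and did not pass (adjusted p = 0.0548). At week 0 the same globin genes were higher in TKI mice than in control mice, by 1.98 for Hba-a1, with the 2 control libraries that stood apart among those compared. In the red cell list 6 of 38 genes rose and none (0) fell while the median was -0.24, whereas with week 0 subtracted 1 was higher and 13 lower. The anion exchanger Slc4a1 differed by -0.40 ± 0.52 (adjusted p = 0.533). The 6 that rose included Gata1, Nfe2, which encodes a factor of platelet formation (1.59 ± 0.31), and the urea transporter Slc14a1 (2.33 ± 0.24). Of 19 haem synthesis genes 1 rose and 1 fell, against 0 higher and 9 lower with week 0 subtracted.

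The interferon response list showed no common direction. Of 43 genes 5 rose and 8 fell, with a median of -0.13. Ifitm3, which blocks virus entry, stood at 166, 237 and 384.5 TPM in TKI mice, against 67.6, 69.2 and 79.3 TPM in control mice (1.75 ± 0.23, adjusted p = 0.000658). The GTPase Igtp rose by 1.78 ± 0.27 and the signal transducer Stat2 fell by 0.68 on the log2 scale. Both cohorts kept apart for Ifitm3 and Stat2.

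The same cohorts were then set side by side at earlier times, using the same mice. At week 0, before tetracycline withdrawal, no gene (0 of 10519, 0%) passed limma's adjusted test, while 2390 had an unadjusted p under 0.05. At week 6, taken as the time before nilotinib because the sources used here do not say whether blood was drawn before the first dose, 6165 genes (58.6%) passed, 2964 (28.2%) higher and 3201 (30.4%) lower. Medians of secondary granule genes were 0.56, 2.91 and 1.73 at week 0, week 6 and weeks 9 and 10, and those of mature neutrophil genes 0.33, 2.24 and 1.16. The platelet list had medians of 0.60, 1.34 and 1.80 at the same times, and basophil and mast cell genes 0.10, 0.78 and 0.77. B cell medians were -0.08, -1.09 and -0.76, with 27 genes lower at week 6, and T cell medians -0.34, -0.64 and -0.15, also with 27 genes lower at week 6. Medians at week 0 also differed from 0, most for haemoglobin (2.16) and the red cell list (1.65).

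**Figure D2:**
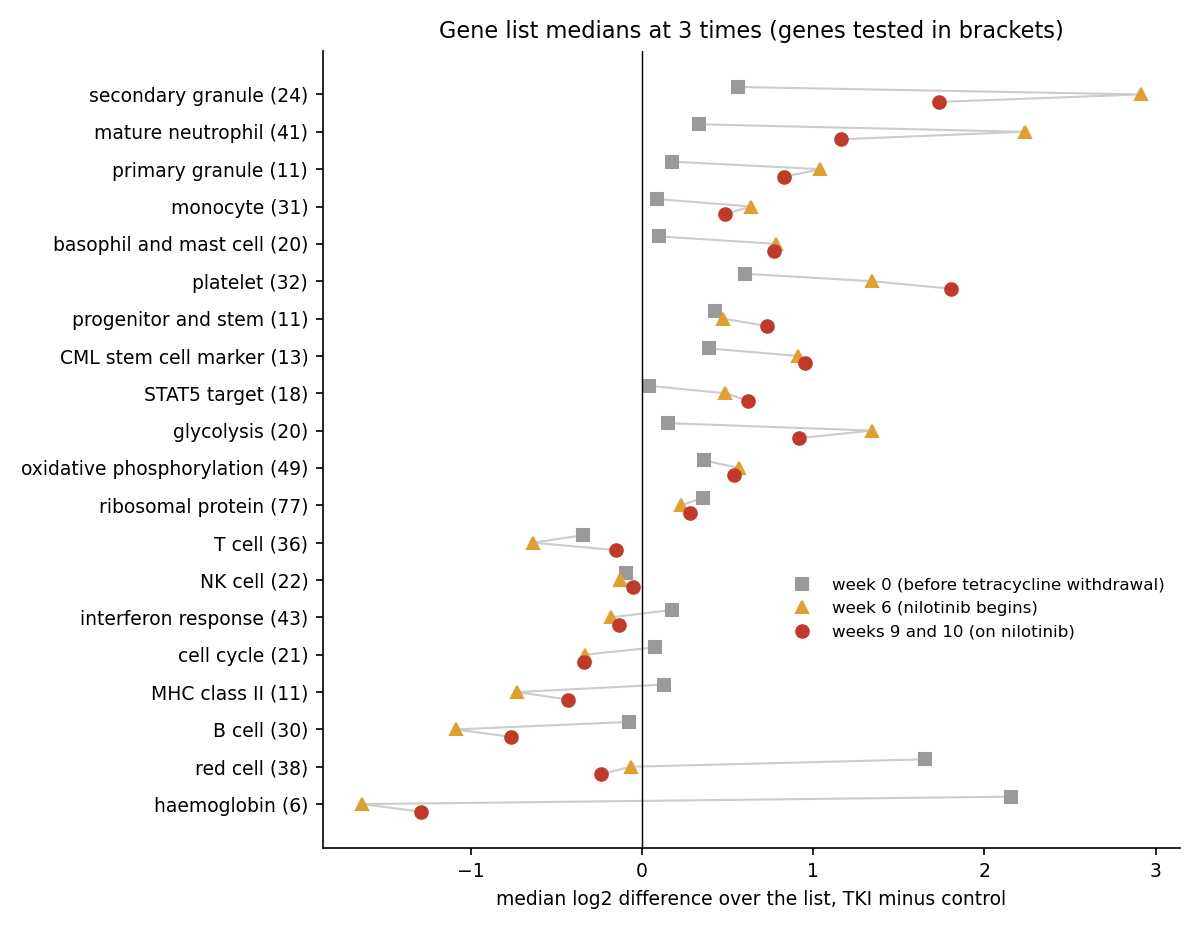
Median log2 difference over each gene list, TKI minus control, at week 0 (squares), week 6 (triangles) and weeks 9 and 10 (circles), with the number of genes tested in brackets. Secondary granule and mature neutrophil lists lie farthest right at week 6 (2.91 and 2.24), the platelet list at weeks 9 and 10 (1.80), and haemoglobin genes change side between week 0 (2.16) and week 6 (-1.64).

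Whether the difference itself moved between week 6 and weeks 9 and 10 was tested on the change of each mouse. Only 2 of 10519 genes (0.019%) passed, each with a positive change and an adjusted p of 0.0452, and were named because of this count. They were Fbf1, a ciliary protein gene (0.72 ± 0.10), and the gene model Gm9136 (0.93 ± 0.12). Both were lower in TKI than in control mice at week 6 (-0.84 and -1.82) and less so at weeks 9 and 10 (-0.12 and -0.89). Gm9136 averaged 0.515 TPM in TKI mice at weeks 9 and 10, a level limited by the pseudocount. Unadjusted p was under 0.05 for 2048 genes. Ngp had a change of -2.02 ± 1.58 (adjusted p = 0.482), Ltf of -2.54 ± 0.63 (adjusted p = 0.146) and Fcer2a of 1.01 relative to control mice, and none of the named genes passed. The lower neutrophil list medians after week 6 rest on no gene that passed the test of change. That test took its variance trend over the mean change, and Ngp had an SE of 1.58 in it. For the difference itself the SE of Ngp was 0.29 at week 6 and 0.47 at weeks 9 and 10. The test therefore cannot decide whether genes with large changes, such as Ngp, moved.

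The weekly course of 6 genes is given as mean TPM with SD over 7 TKI mice. Ngp averaged 369 ± 97.1 TPM at week 6, 301 ± 62.5 at week 7, 98.1 ± 56.8 at week 8 and 97.4 ± 61.9 at week 10 in TKI mice, while control means stayed between 0.333 and 0.740 TPM over weeks 0 to 10. The transgene averaged 11.0 ± 8.04 TPM at week 6, 12.5 ± 6.65 at week 7, 4.73 ± 1.47 at week 8 and 9.70 ± 5.37 at week 10 in TKI mice. Both were lower at week 8 than at week 7, and the transgene mean was higher again at week 10. Gp1bb averaged 222 ± 56.9 TPM at week 6, 409 ± 102 at week 8 and 311 ± 116 at week 10 in TKI mice. Mcpt8 averaged 10.6 ± 3.15 TPM at week 6, 22.8 ± 11.2 at week 7 and 7.20 ± 4.18 at week 8. Fcer2a averaged 9.79 ± 2.95 TPM at week 6, 20.2 ± 3.83 at week 8 and 23.7 ± 8.72 at week 10 in TKI mice, against 51.2, 57.4 and 60.4 TPM in control mice. Cd34 already averaged 17.9 ± 4.06 TPM at week 1 in TKI mice, against 0.096 ± 0.0461 TPM in control mice, and Gp1bb 269.5 ± 37.8 TPM in TKI mice, against 44.5 ± 24.7 TPM in control mice, while the transgene averaged 0.902 ± 0.669 TPM in TKI mice. Differences between these weeks were not tested.

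**Figure D3:**
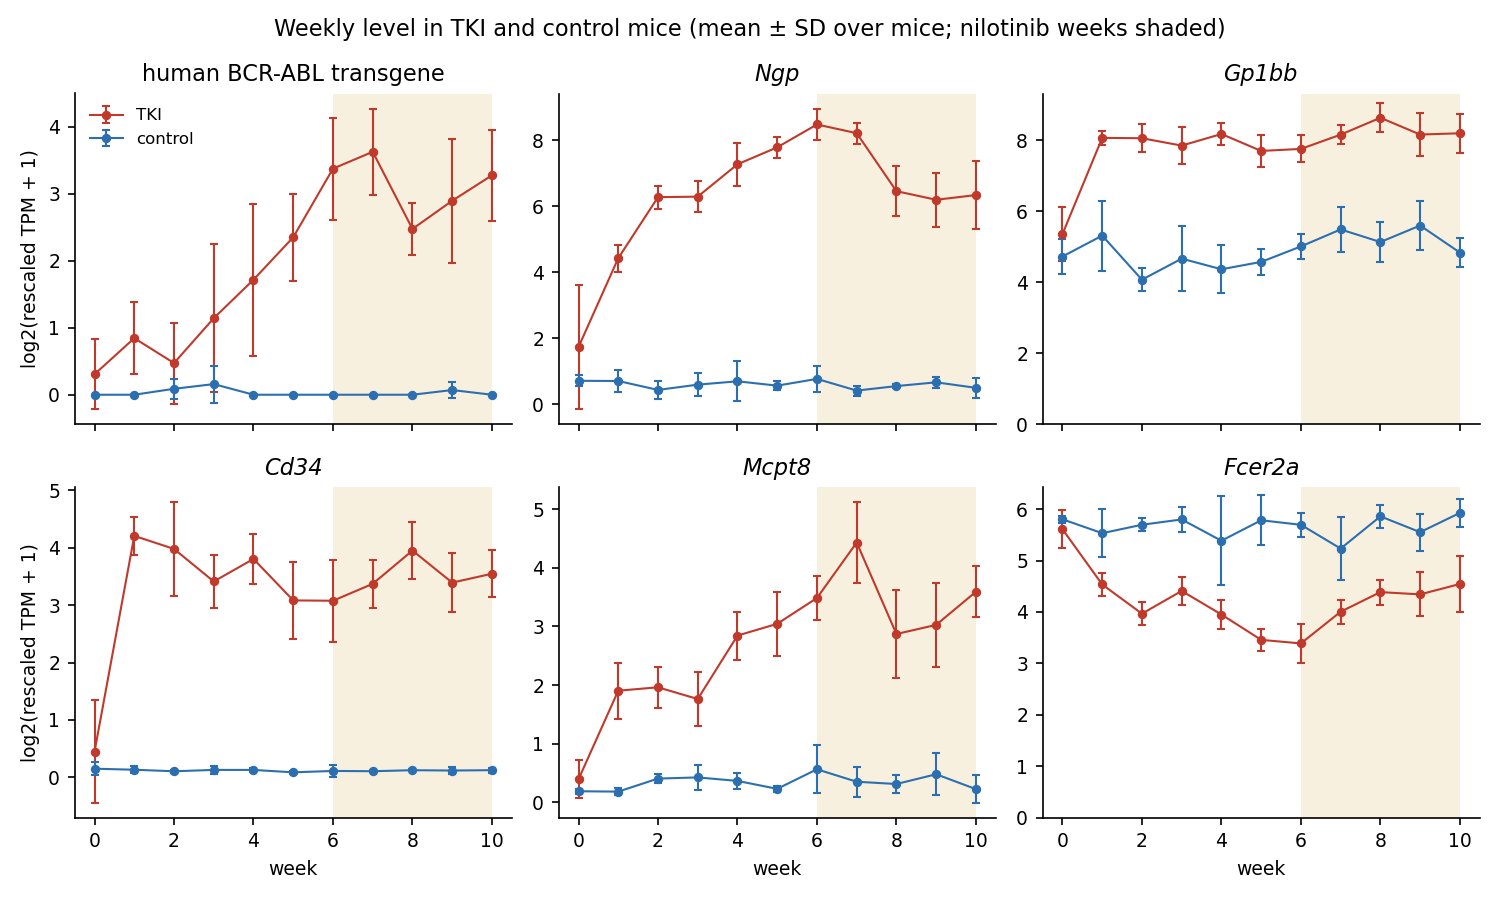
Weekly log2(rescaled TPM + 1) of the human BCR-ABL transgene, Ngp, Gp1bb, Cd34, Mcpt8 and Fcer2a from week 0 to week 10, as mean ± SD over 7 TKI mice (red) and 3 control mice (blue), with the weeks on nilotinib shaded. Ngp drops after week 7 (301 TPM at week 7, 98.1 TPM at week 8) and levels off far above control, Gp1bb and Cd34 are high in TKI mice from week 1 on, and Fcer2a climbs toward control without reaching it (23.7 TPM in TKI mice and 60.4 TPM in control mice at week 10).

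Untreated CML mice at the same weeks gave a view without the drug. No gene (0 of 10519, 0%) passed the test of TKI minus CML, and 1221 had an unadjusted p under 0.05. CML mice varied widely, and mouse 487, labelled CML, had the transgene listed at 0 at weeks 0, 6, 9 and 10. Mean levels of the secondary granule list were 4.98 ± 0.51 in TKI mice (SD, n = 7), 4.71 ± 1.44 in CML mice (n = 5) and 2.84 ± 0.10 in control mice (n = 3). Platelet list means were 8.05 ± 0.47 in TKI mice, 7.33 ± 0.81 in CML mice and 6.32 ± 0.42 in control mice. B cell list means were 4.61 ± 0.37 in TKI mice, 4.48 ± 0.70 in CML mice and 5.33 ± 0.22 in control mice. Without mouse 487 the CML means were 5.13 ± 1.25 for secondary granule genes, above the TKI mean, 7.45 ± 0.88 for platelet genes and 4.38 ± 0.77 for B cell genes (n = 4). That secondary granule mean in turn hangs on mouse 484, at 6.96, while mice 480, 541 and 542 stood at 4.86, 4.49 and 4.20, below the TKI mean. The order of TKI and CML mice for secondary granule genes thus depends on single mice. The lowest CML mouse stood at 3.01 for secondary granule genes and 6.14 for platelet genes and the highest at 6.96 and 8.01, so TKI and CML mice overlapped in both; a test that no gene passes does not show that the cohorts are alike.

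**Figure D4:**
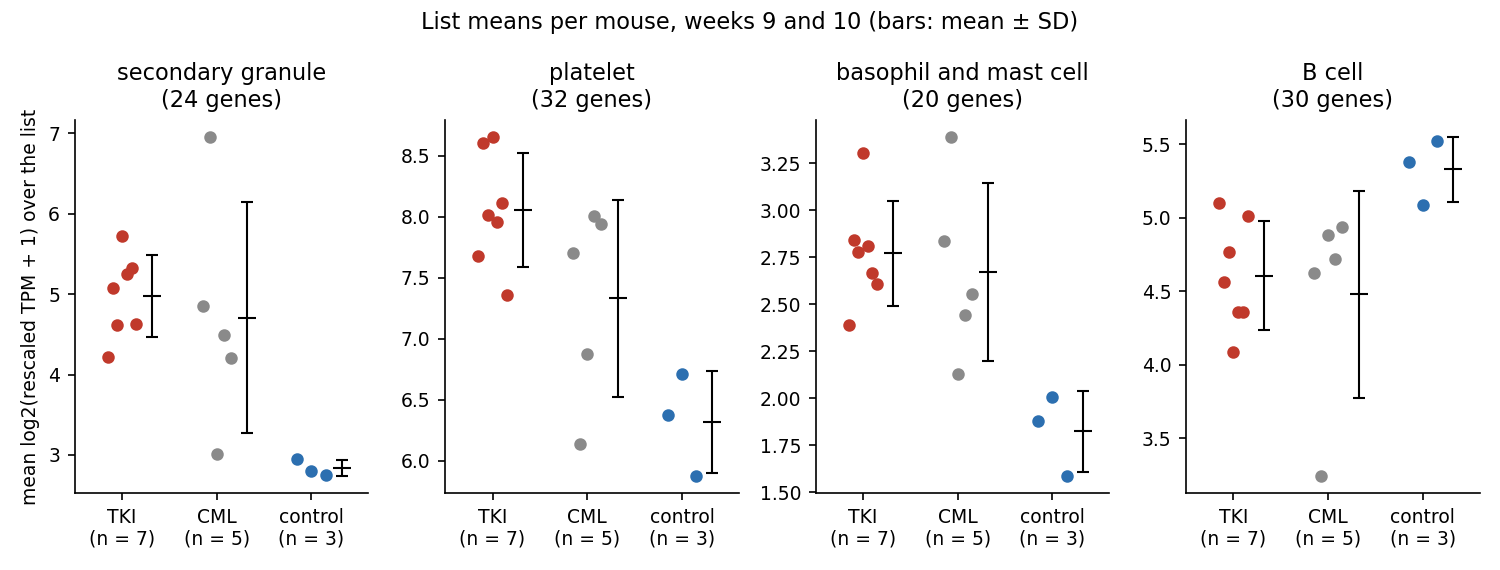
Mean log2(rescaled TPM + 1) over 4 gene lists for each mouse at weeks 9 and 10, in TKI (n = 7), CML (n = 5) and control (n = 3) mice, with mean ± SD beside the points; the vertical axes do not start at 0. TKI mice lie above all control mice for secondary granule (4.98 against 2.84), platelet (8.05 against 6.32) and basophil and mast cell lists (2.77 against 1.82), the B cell list overlaps, and CML mice spread widest.

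Batch and cohort were partly confounded. Batch 2022_A held 4 TKI mice and 1 control mouse, the other 3 TKI mice were in 2022_B, and the other 2 control mice in 2021_E, so that 1 batch gives a within-batch value. The mice of 2022_A are part of the comparison over all mice, and many genes were named for cohorts that do not overlap, so the sign within the batch was largely fixed and is no independent support. Of the 152 named genes 145 were called over all mice, and 114 of these had a smaller difference within 2022_A, with a median ratio of 0.902. Within 2022_A the difference was 5.17 for Ngp, 3.41 for Cd34, 3.28 for Gp1bb, 2.77 for Mcpt8, 1.26 for Myc and -1.17 for Fcer2a. List means differed by 1.84 for secondary granule genes (2.14 over all mice), 1.69 for platelet genes (1.74), 0.83 for basophil and mast cell genes (0.95) and -0.68 for B cell genes (-0.72). With batch as a term 14 genes passed, among them Dstn, Clca3a1, Cd34, Cd59a, Mcpt8 and Myc, and 97 passed on the mice of 2022_A alone. Both fits rest on the same 4 TKI mice and 1 control mouse, which is assumed to vary like the other mice.

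**Figure D5:**
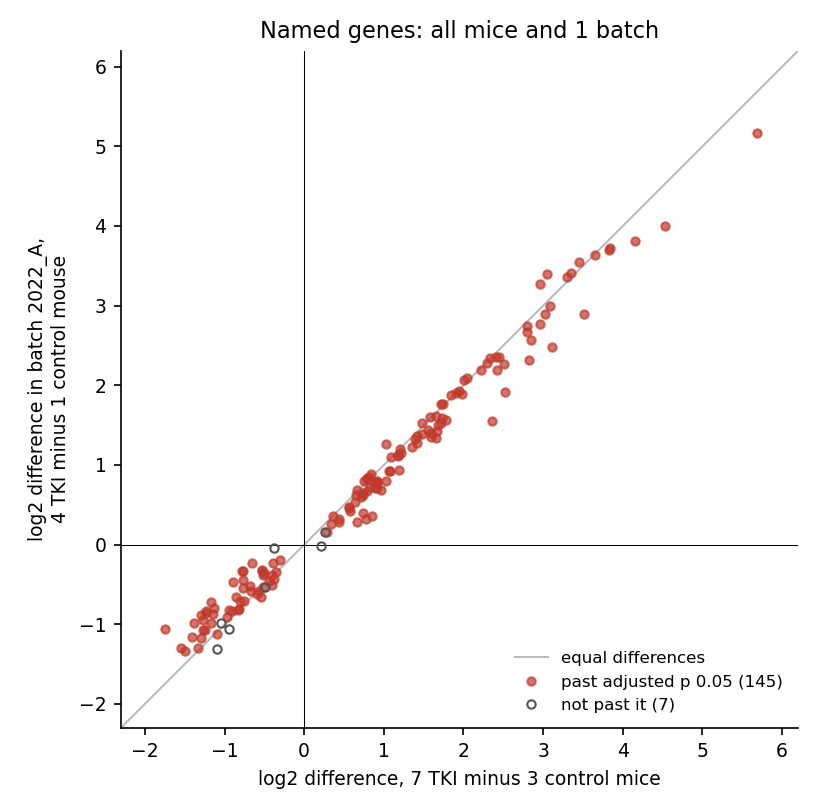
Log2 difference, TKI minus control, of 152 named genes over all 7 TKI and 3 control mice (horizontal) and over the 4 TKI mice and 1 control mouse of batch 2022_A (vertical); filled points passed an adjusted p of 0.05 over all mice (145), open points did not (7). The batch mice are among all mice and the genes were chosen on the horizontal values, so closeness to the line of equal differences is partly built in; 114 of the 145 filled points are smaller within the batch (median ratio 0.902).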

How the data were processed

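RNA of whole blood was depleted of ribosomal RNA and sequenced from reverse-stranded libraries (RNA integrity number above 4.0), per the labels' protocols. The authors deposited TPM for 14605 genes in 298 libraries; the submitters' processing notes name GRCm39, STAR and Salmon, and the versions are not given in the sources used here. All columns were mapped to a sample (0 unmapped), and 14537 genes were matched to GENCODE M39. TPM keeps no depth, so depth is unknown and no counting error is given.

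Here TPM were divided by median-ratio size factors over 4339 genes present in all libraries. Values are log2(rescaled TPM + 1), averaged over weeks 9 and 10 for each mouse; TPM printed for a mouse are the arithmetic mean of its rescaled TPM in both weeks, so tests and overlap, which use the log2 means, can differ from them. Genes with a mean of at least 1 TPM over the series (10519) entered a linear model per gene in R 4.3.3 (limma 3.58.1, moderated with a mean-variance trend, 3.029 prior and 8 residual degrees of freedom), and p-values were adjusted by Benjamini-Hochberg at 0.05; TMM scaling, from its published formula on TPM, was an alternative. Tests on the change from week 6 use 1 change per mouse, since libraries with 1 mouse number come from the same animal. In these, and in fits with week 0 subtracted, the variance trend runs over the mean change and not the mean level. Single values were tested by exact permutation in Python 3.11.15 with scipy 1.17.1. On simulated data, 84.8% of 112 genes changed by 1 on the log2 scale and 100% of 88 changed by 2 were recovered among 10519, with 18 false calls. The simulated noise was independent between genes and mice and held no batch or week 0 difference. Its false calls therefore do not cover errors from those sources.

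Named genes were the 12 largest higher and 12 largest lower called genes with at least 5 TPM and no overlap between cohorts, passing over gene models and pseudogenes, plus the transgene, Bcr, Abl1 and up to 4 members of each list with the smallest p; 18 lineage markers, and the 2 genes called in the change from week 6, were added after the values were seen. The comparison and the gene lists were chosen with earlier results of these data known, so list counts are descriptions. Near-identical copies (Hba-a1 and Hba-a2, H2-Q5 and H2-Q6, Iglc2 and Iglc3) have uncertain separate values. Replicates are separate mice. A few genes are not reported here.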

Additional observations from a re-analysis of the deposited data

Results flagged for a closer look

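In 7 of 192 values examined over the 7 TKI mice, 1 mouse lay apart from the others by Dixon's criterion (0.568 of the range), which chance alone reaches in about 1 in 20 groups. Mouse 511 gave 4 of the 7. Its mean over the interferon response list was 3.494, the highest, with the next mouse at 2.993. By week it was below the other TKI mice at week 6 (2.74, others 3.01 to 3.24) and above them at week 9 (3.58, others 2.84 to 3.11) and week 10 (3.41, others 2.87 to 3.00). Of the 43 genes 32 were highest in this mouse among TKI mice, and 24 lay above all TKI and control mice. As means of the TPM of both weeks, Rtp4, an interferon-induced chaperone, stood at 13.6 TPM in mouse 511, at 3.26 to 5.59 TPM in the other TKI mice and at 4.48 to 4.80 TPM in control mice. The antiviral genes Oas3 (20.2 TPM in mouse 511, at most 10.0 in other TKI mice) and Oas1a (9.34 TPM, at most 5.70) behaved likewise. Gbp7, an interferon-induced GTPase, was highest in the same mouse at 2.623 (next 2.376, log2). Its T cell list mean was the lowest at 3.226 (next 3.467), as was Lck, the T cell receptor kinase, at 3.165 (next 3.643).

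Mouse 507 was the lowest for the mitochondrially encoded list, at 6.155 (next 7.095), and for mt-Atp8, an ATP synthase subunit, at 7.117 (next 8.534). The list mean was 7.29 at week 9, within the other mice (6.85 to 7.54), and 5.02 at week 10, below them (7.15 to 7.53), so that 1 library set the value; 12 of 13 genes were lowest in this mouse. Mouse 514 had the highest haemoglobin share, 46.7% (46.745 before rounding), with the next at 29.4%. The causes were not tested.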

How the results depend on the processing

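The count of 5194 genes became 1883 on TPM as deposited, 2902 with a filter at 5 TPM (5372 genes tested), 911 with week 0 subtracted (719 of them shared), 14 with batch as a term (13 shared) and 97 within 2022_A (91 shared); leaving out 1 mouse gave 3193 to 5457. The remaining alternatives gave 4150 (CML mice in the fit) to 6559 (no filter). Week 0 gave 9202 genes as deposited (0.532% higher), 2 with batch as a term and 0 to 424 with 1 mouse left out, 424 without control mouse 488, which leaves the 2 libraries that stand apart. Week 6 gave 2778 as deposited and 5037 to 6382 with 1 mouse left out. The change from week 6 gave 0 genes as deposited, with pseudocount 0.1 or with batch as a term, 1 with no replicate block, and 0 to 1 with 1 mouse left out. TKI minus CML gave 2 as deposited and 0 to 10 with 1 mouse left out, 10 without TKI mouse 514, and 1 without CML mouse 487.

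With 2 control mice left, the exact test cannot pass; the differences were then 3.03 to 3.09 for the transgene (2.86 to 3.21 over all mice left out), -29.88 to -24.65 percentage points for haemoglobin (-30.39 to -24.65 over all mice left out), 15.83 to 18.0 for Rn7s2 (15.82 to 18.92 over all mice left out) and 0.162 to 0.261 for the mitochondrial share, which was 0.137 at week 10 alone, where it did not pass. Among 152 named genes, 109 kept direction and call as deposited, 47 with week 0 subtracted, 12 with batch as a term and 26 within 2022_A. With week 0 subtracted the sign turned for Ear2 (-0.14), Bst2 (-0.053), Abl2 (0.051), Lck (0.24), Fosb (0.019), mt-Co3 (-0.14), mt-Co1 (-0.082), mt-Atp8 (-0.12) and mt-Nd4 (-0.13), and with batch as a term or within 2022_A for Ear2 (-0.014). Except as stated, the causes were not tested. Few control mice and batches that hold 1 cohort limit all calls; genes near 1 TPM are limited by the pseudocount.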

Other observations

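Over the 7 TKI mice the transgene level at weeks 9 and 10 was set against 5 other values, an analysis added after the data were seen. The relation was r = 0.64 with the platelet list mean (rho = 0.5; exact permutation p = 0.129 for r and 0.267 for rho, adjusted p = 0.647 for r), and r = 0.65 without the 2 mice farthest from the median. It was r = 0.48 with the basophil and mast cell list mean (rho = 0.68, exact p = 0.287 and 0.11, adjusted p = 0.719), and 0.8 without the 2 mice. The values were 0.11 with secondary granule genes (rho = -0.071, exact p = 0.813 and 0.906, 0.48 without the 2 mice), -0.17 with B cell genes (rho = -0.18, exact p = 0.707 and 0.713, -0.50 without them) and -0.071 with the haemoglobin share (rho = 0.11, exact p = 0.893 and 0.84, -0.045 without them), each with an adjusted p of 0.893. None of the 5 passed, and the batches held 4 and 3 mice, too few for a value within a batch.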
